A study of Homo sapiens with 16 samples.

Results

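The 10 genes described here encode the brakes and the accelerators of the step from G1 into S phase: 7 cyclin-dependent kinase inhibitors (CDKN1A, CDKN1B, CDKN1C, CDKN2A, CDKN2B, CDKN2C and CDKN2D) and 3 D cyclins (CCND1, CCND2 and CCND3). They were chosen by name, out of 35810 genes summed from the transcript tables, and all 10 were among the 16705 genes with enough reads to be tested. RNA was sequenced in 16 libraries of pancreatic progenitors on day 19 of a directed differentiation, all from 1 human embryonic stem cell line, SA121 carrying a NGN3-GFP reporter of the endocrine gene NEUROG3. Latrunculin B (LatB), which binds actin monomers and depolymerises the actin cytoskeleton, was given at 0.5 µM for 3 h, 6 h and 24 h (3 libraries each) or 12 h (2 libraries). The controls were taken at 0 h (3 libraries) and after 24 h of DMSO, the vehicle (2 libraries). The labels of the 0 h control name DMSO as well, whereas the series design places it ahead of treatment, so its vehicle status is uncertain. Vehicle-treated cells of 3, 6 and 12 h were not analysed here, so at those times treatment and hours in culture cannot be told apart.

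D cyclins bind and activate the kinases CDK4 and CDK6, which phosphorylate the retinoblastoma protein RB1 and so release E2F factors for S phase entry. The INK4 inhibitors (CDKN2A to CDKN2D) bind CDK4 and CDK6 and keep D cyclins off them. The CIP/KIP inhibitors (CDKN1A, CDKN1B and CDKN1C) bind cyclin-CDK complexes more widely, and in the embryonic pancreas CDKN1C and CDKN1B are known for their part in cell cycle exit as endocrine cells form.

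The libraries held 23609727 to 33515398 estimated reads. Progenitor genes were present in every library: PDX1 lay between 110 and 173 TPM (the share of transcripts scaled for transcript length and library size) and SOX9 between 86.3 and 136 TPM, whereas the pluripotency genes POU5F1 and NANOG stayed at or under 2.02 and 0.27 TPM. The full list of 6 pluripotency genes, which holds POU5F1 and NANOG, summed to 89.0 to 196 TPM per library. Most of that sum thus lay in its other genes. RBPJL, a pancreatic gene known from acinar cells, stayed at or under 0.04 TPM. LatB 12 h replicate 2 stood apart from the other libraries. Its 24 p53 target genes summed to 2160 TPM and its 8 mesenchyme genes to 435 TPM, against 1019 to 1314 TPM and 60.7 to 132 TPM in the 14 libraries other than it and LatB 24 h replicate 1. In LatB 24 h replicate 1 the p53 target genes summed to 1560 TPM, the mesenchyme genes to 102 TPM and the endothelial and blood genes to 4.85 TPM. Markers of other cell types moved with LatB 12 h replicate 2 as well: its liver genes summed to 4392 TPM and its endothelial and blood genes to 12.3 TPM, against 1843 to 3084 TPM and 1.03 to 3.18 TPM in those 14 libraries, and its pancreatic progenitor genes to 1449 TPM against 1764 to 2605 TPM.

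Of the 10 genes, 8 were called against the controls at 1 or more times, and CDKN2A and CDKN2B at none. CDKN1B rose at 6, 12 and 24 h, where it was 2.04-fold higher than control 24 h (95% interval 1.75 to 2.37). The D cyclin CCND1 fell at 6, 12 and 24 h. CDKN1C and CDKN2C fell at 3 h, when CDKN2D rose. The CDKN2C fall rested on 8 to 15 reads per library at 3 h and was not called against control 24 h (-0.86). The only call of CDKN1A, higher at 12 h, depended on LatB 12 h replicate 2 (-0.02 without it). Of the 10 genes, 3 were called at 3 h (1 higher, 2 lower), 5 at 6 h (1 higher, 4 lower), 4 at 12 h (2 higher, 2 lower) and 3 at 24 h (1 higher, 2 lower) with the edgeR quasi-likelihood test at an adjusted p under 0.05. The share of all 16705 genes called in the same comparisons was 31.6% at 3 h, 43.3% at 6 h, 35.8% at 12 h and 40.8% at 24 h, so the share of these 10 genes called in either direction lay near that of the transcriptome. By direction, 22.9% of all genes were higher and 20.4% lower at 6 h. Their median log2 fold change was -0.38 at 3 h, -0.38 at 6 h, -0.11 at 12 h and -0.01 at 24 h, beside 0.00, -0.01, 0.01 and 0.01 over all genes. Whether the replicates were separate cultures is not stated, so the p-values measure only the spread between these libraries.

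**Figure D1:**
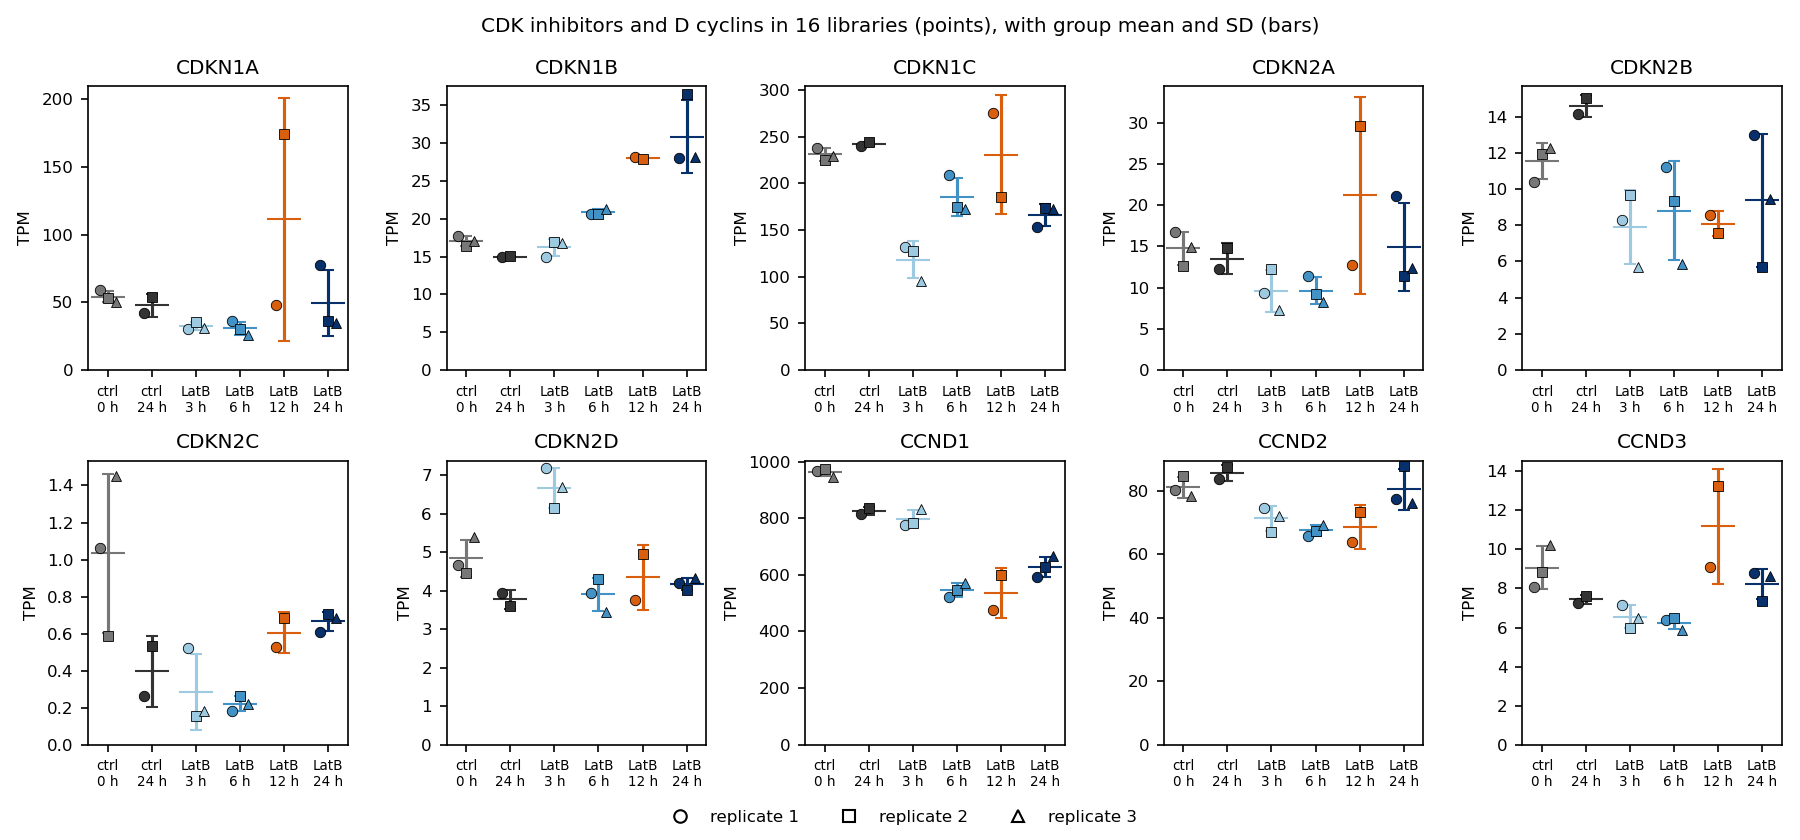
TPM (vertical axis, from 0) of each of the 10 genes in each of the 16 libraries, by group; points are libraries (circle, square and triangle for replicates 1, 2 and 3), and the horizontal mark and bar are the group mean and SD. Mean CDKN1B is 17.1 TPM in control 0 h and 30.9 TPM in LatB 24 h, CCND1 falls from 962 TPM to 547 TPM at 6 h, and the high CDKN1A value at 12 h is that of 1 library.

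The genes sat at very different levels. On the TPM scale CCND1 was the highest in control 0 h at 962 ± 14.7 (SD, n = 3), ahead of CDKN1C at 231 ± 6.45, CCND2 at 81.1 ± 3.28 and CDKN1A at 54.3 ± 4.24. CDKN1B (17.1 ± 0.672), CDKN2A (14.8 ± 2.03), CDKN2B (11.5 ± 1.01) and CCND3 (9.06 ± 1.09) followed. In that order only CDKN1B and CDKN2A overlapped between neighbours in control 0 h, with 16.4 to 17.7 TPM and 12.7 to 16.7 TPM. CDKN2D (4.84 ± 0.486) and CDKN2C (1.03 ± 0.431) were lowest. The summed D cyclin level was thus mostly CCND1, which held 86.7% to 91.6% of it in every library. Fewer expressing cells and less RNA per cell cannot be told apart in these bulk samples.

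CDKN1B, which encodes p27, was called higher at 3 of the 4 times. The gene lies on chromosome 12 (GRCh38, 12685498 to 12722369, plus strand), and every read assigned to it went to 1 transcript, CDKN1B-201, whose start is at the end of the window printed here. It is shown as the region upstream of the inhibitor called most often, beside the same window of CDKN2B. CDKN2B was not called in any comparison of the main fit, though its values were negative at all 4 times and called under some alternatives. Each is 250 bases upstream of the start, 5′ to 3′ on the strand of the gene, from RefSeq on GRCh38.p14, at chr12:12717118-12717367 (plus strand) and chr9:22009306-22009555 (minus strand). Capitals mark a match to the TEAD motif.
CDKN1B: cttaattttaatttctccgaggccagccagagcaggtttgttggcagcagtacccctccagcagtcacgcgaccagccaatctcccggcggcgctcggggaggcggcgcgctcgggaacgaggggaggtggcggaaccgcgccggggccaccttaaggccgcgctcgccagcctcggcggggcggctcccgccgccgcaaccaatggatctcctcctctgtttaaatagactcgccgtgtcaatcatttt
CDKN2B: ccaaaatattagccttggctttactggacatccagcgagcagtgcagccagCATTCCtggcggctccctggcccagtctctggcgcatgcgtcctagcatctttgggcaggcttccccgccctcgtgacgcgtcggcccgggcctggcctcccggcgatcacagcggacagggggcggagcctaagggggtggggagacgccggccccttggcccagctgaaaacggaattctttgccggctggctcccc

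The windows were searched on both strands for 8 motifs. That of the TEAD factors, the partners of YAP1, was spelled GGAATG. For the FOXO factors, which are known to act on CDKN1B, the letters were GTAAACA. E2F sites were taken as TTTGGCGC or as TTTCCCGC in either window. The AP-1 site, where FOS and JUN bind, was written TGACTCA. For the cyclic AMP element CRE the search used TGACGTCA as its only form. The E-box of MYC was searched as CACGTG alone. For the core promoter element TATA the letters were TATAAA, which the CArG box of SRF, searched by its usual pattern, can contain. Windows were given for 7 of the 10 genes, and CCND1, CCND2 and CDKN1C had none. The CDKN1B window (64.4% G and C) held none of the motifs, and the CDKN2B window (66.4%) held 1 TEAD match. At least 1 TEAD match was held by 11.9% of all 35116 windows. The other matches were TEAD in 1 of the 3 CCND3 windows and, over the 3 CDKN2C windows, 2 TEAD and 2 E-box matches, a motif that 6.34% of all windows held. FOXO matches were held by 2.98% of all windows, E2F by 1.93%, AP-1 by 4.2%, CRE by 1.65%, TATA by 10.7% and the CArG box by 1.16%. These matches describe letters in a window only.

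CDKN1B lay at 17.7, 16.4 and 17.1 TPM in control 0 h and at 14.9 and 15.1 TPM in control 24 h. LatB 3 h gave 14.9, 17.0 and 16.8 TPM, overlapping with both controls. It then moved to 20.7, 20.6 and 21.3 TPM at 6 h, to 28.2 and 27.9 TPM at 12 h, and to 28.0, 36.5 and 28.1 TPM at 24 h. From 6 h on, every treated library lay above every control library, and the order of the groups followed the hours of treatment with the 12 h and 24 h ranges overlapping. The log2 fold change was -0.03 ± 0.10 (SE) at 3 h (adjusted p = 0.85, edgeR), 0.38 ± 0.10 at 6 h (adjusted p = 0.0065, edgeR), 0.69 ± 0.11 at 12 h (adjusted p = 0.00029, edgeR) and 1.03 ± 0.11 at 24 h against control 24 h (adjusted p = 1.81e-05, edgeR). Against the control of 0 h the 24 h value was 0.80 (adjusted p = 3.1e-05, edgeR). CDKN1B was also higher at 6 h than at 3 h by 0.41 ± 0.10 (adjusted p = 0.0090, edgeR) and at 24 h than at 6 h by 0.42 ± 0.10 (adjusted p = 0.0038, edgeR). The effect at 24 h exceeded the effect at 3 h by 1.06 ± 0.15 on the log2 scale (adjusted p = 0.00024, edgeR), a difference called under each of the 25 alternatives tried. Without LatB 12 h replicate 2 the 12 h value was 0.79, and without LatB 24 h replicate 1 the 24 h value was 1.10.

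Endocrine genes were called higher at the times when CDKN1B was, and some at 3 h, when it was not. Over all genes 16.8%, 22.9%, 19.1% and 21.9% were higher at 3, 6, 12 and 24 h, and 14.7%, 20.4%, 16.8% and 18.8% lower. Of 12 endocrine genes, 3 were higher at 3 h, 7 at 6 h, 8 at 12 h and 7 at 24 h, and 0 were lower (median log2 fold change 0.67, 1.41, 1.95 and 1.58). The 12 h count was 5 without LatB 12 h replicate 2. With the controls exchanged, 4 were higher and 1 lower at 6 h, 4 and 0 at 12 h, and 12 and 0 at 24 h. Their summed level was 63.4 to 78.0 TPM in control 0 h, 106 and 126 TPM in control 24 h, and 149, 514 and 451 TPM in LatB 24 h. Between the controls, where CDKN1B was not called, their median was 1.32, with 4 called higher by DESeq2 and 0 by edgeR. LatB 24 h replicate 1 was the lowest of its group in endocrine genes, while its CDKN1B level of 28.0 TPM lay beside the 28.1 TPM of replicate 3. The part of endocrine cells in the CDKN1B values was not tested.

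CDKN1C, an imprinted gene that encodes p57 (chromosome 11, 2883213 to 2885775, minus strand), fell at 3 h and was higher again at 6 h. Control 0 h held 238, 225 and 230 TPM and control 24 h 240 and 244 TPM. LatB 3 h held 132, 128 and 95.1 TPM, below every other library. At 6 h the values were 209, 175 and 172 TPM, at 12 h 276 and 186 TPM, and at 24 h 153, 174 and 172 TPM. The 3 h fall was -0.86 ± 0.15 on the log2 scale (adjusted p = 0.00074, edgeR), 0.551-fold with a 95% interval of 0.449 to 0.677, and the 6 h level was higher than the 3 h level by 0.67 ± 0.15 (adjusted p = 0.0070, edgeR). At 24 h all 3 treated libraries lay under both control libraries, at -0.46 ± 0.17 (adjusted p = 0.041, edgeR). That call was lost when any 1 of the 5 libraries compared was left out, with values from -0.50 to -0.38 and adjusted p from 0.055 to 0.16. The 12 h comparison was not called (0.00 ± 0.17); without LatB 12 h replicate 1 it was -0.41 (adjusted p = 0.038, edgeR), and without replicate 2 it was 0.31 (adjusted p = 0.10, edgeR).

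CDKN1A encodes p21, a target of the tumour suppressor p53 (chromosome 6, 36676460 to 36687337, plus strand). Its values were 58.9, 53.3 and 50.6 TPM in control 0 h and 41.9 and 53.7 TPM in control 24 h. All 6 libraries of LatB 3 h (30.5, 35.7 and 30.9 TPM) and 6 h (36.0, 30.2 and 26.0 TPM) lay under all 5 control libraries. The replicates of 12 h were 47.8 and 175 TPM, and those of 24 h were 77.2, 36.5 and 34.6 TPM, so 1 library of each stood far above its partners. With the spread shared over all groups the early differences were not called, at -0.57 ± 0.34 at 3 h (adjusted p = 0.24, edgeR) and -0.67 ± 0.35 at 6 h (adjusted p = 0.14, edgeR). Fitted on the 2 groups compared alone, both were called lower (adjusted p = 0.00065 at 3 h and 0.0013 at 6 h, edgeR). The 12 h value was called higher at 1.02 ± 0.37 (adjusted p = 0.048, edgeR), but without LatB 12 h replicate 2 it was -0.02 (adjusted p = 0.97, edgeR). Leaving out any 1 control 0 h library also ended that call, at 0.97 to 1.06 (adjusted p = 0.081 to 0.11). At 24 h the change was 0.06 ± 0.38 (adjusted p = 0.92, edgeR), and -0.37 without LatB 24 h replicate 1 (adjusted p = 0.45, edgeR).

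**Figure D2:**
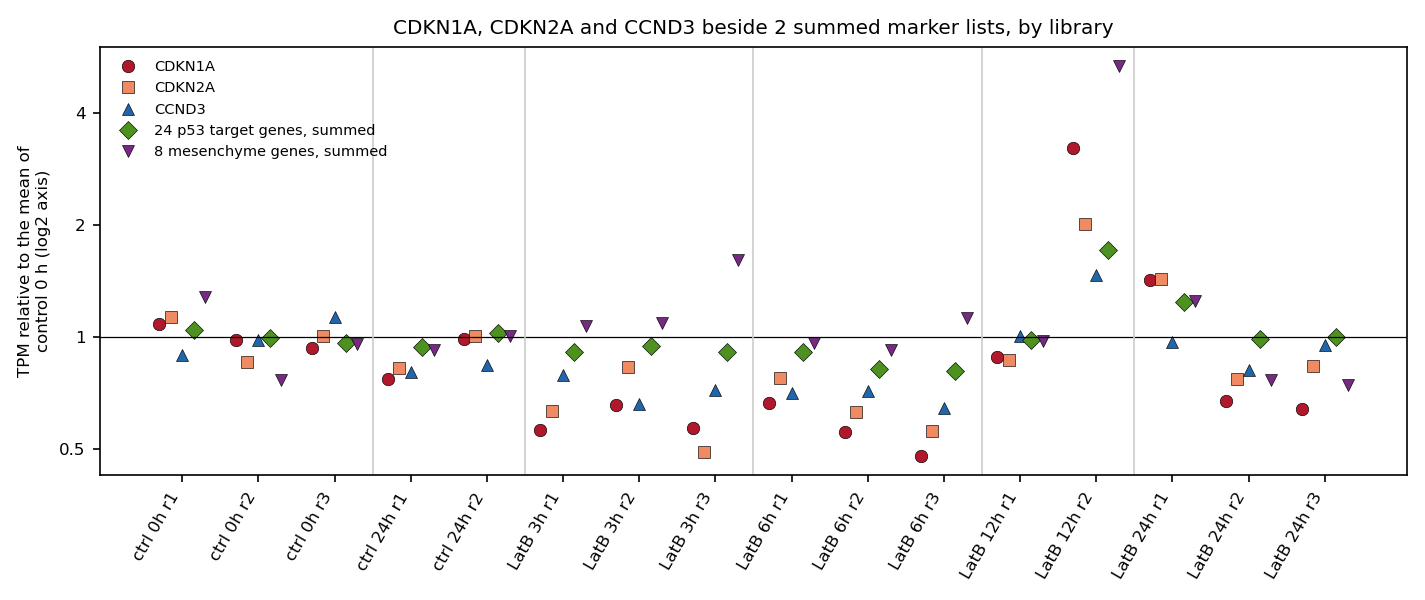
Level of CDKN1A, CDKN2A and CCND3 and of 2 summed marker lists in each library, on the TPM scale relative to the mean of control 0 h (log2 axis); vertical lines separate the groups. In LatB 12 h replicate 2 all 5 values lie above those of the other libraries, with CDKN1A at 175 TPM and the p53 target genes at 2160 TPM.

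The same 2 libraries held the highest CDKN2A values. CDKN2A (chromosome 9, 21967752 to 21995301, minus strand) encodes p16 and, from another first exon and reading frame, ARF, which stabilises p53. It lay between 12.7 and 16.7 TPM in control 0 h, at 12.2 and 14.8 TPM in control 24 h, and between 7.25 and 12.3 TPM over the 6 libraries of LatB 3 h and 6 h. It was 12.8 and 29.7 TPM at 12 h and 21.1, 11.4 and 12.4 TPM at 24 h. No comparison was called: the log2 fold change was -0.47 ± 0.26 at 3 h (adjusted p = 0.19, edgeR), -0.35 ± 0.26 at 6 h, 0.51 ± 0.28 at 12 h (adjusted p = 0.18, edgeR) and 0.09 ± 0.28 at 24 h. Without LatB 12 h replicate 1 the 12 h value was 0.90 (adjusted p = 0.023, edgeR), which then compares LatB 12 h replicate 2 alone with control 0 h. Without LatB 12 h replicate 2 it was -0.05 (adjusted p = 0.93, edgeR), and the 24 h value without LatB 24 h replicate 1 was -0.21 (adjusted p = 0.55, edgeR).

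CDKN2A transcripts were summed by where they start. The 5 transcripts that start at the far first exon, the one that ARF uses, held 6.57 to 8.89 TPM in the controls and 10.7 TPM in LatB 12 h replicate 2. The 4 that start at the near first exon, the one that p16 uses, held 1.39 to 1.88 TPM in the controls and 4.15 and 4.11 TPM in LatB 12 h replicate 2 and LatB 24 h replicate 1. The far first exon thus held more than the near one in every library. A further 5 transcripts start inside shared exons and cannot be given to either product, and they held 14.8 TPM in LatB 12 h replicate 2 and 3.74 to 7.11 TPM in the controls. Reads that fit several transcripts were shared out by the quantification, so these sums are estimates, and an antisense gene overlaps the locus while strand use is not stated.

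The other INK4 genes are low in these cells. CDKN2B, which encodes p15 (chromosome 9, 22002903 to 22009305, minus strand), was 10.4, 11.9 and 12.3 TPM in control 0 h, 14.2 and 15 TPM in control 24 h, and 5.67 to 13 TPM over all 11 treated libraries. In the main fit it was not called in any comparison, with -0.59 ± 0.25 at 3 h (adjusted p = 0.091, edgeR), -0.42 ± 0.25 at 6 h, -0.51 ± 0.28 at 12 h and -0.62 ± 0.27 at 24 h (adjusted p = 0.089, edgeR). Fitted on the 2 groups compared alone, it was called lower at 3 h (adjusted p = 0.017, edgeR), 6 h (adjusted p = 0.037, edgeR) and 12 h (adjusted p = 0.041, edgeR), but not at 24 h. With control 24 h as the reference the 3 h value was -0.84 and called (adjusted p = 0.030, edgeR). All 3 LatB 24 h libraries (13, 5.67 and 9.44 TPM) lay under both control 24 h libraries. Without LatB 24 h replicate 1 the 24 h value was -0.95 (adjusted p = 0.0086, edgeR).

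CDKN2C, which encodes p18 (chromosome 1, 50960745 to 50974634, plus strand), rested on 8 to 46 reads per library. Control 0 h held 46, 31 and 38 reads, and control 24 h held 13 and 29. LatB 3 h held 15, 8 and 10 reads, LatB 6 h 9, 13 and 10, LatB 12 h 23 and 35, and LatB 24 h 15, 24 and 20. All 6 early libraries were below control 0 h, at -1.99 ± 0.33 at 3 h (adjusted p = 0.00048, edgeR) and -1.83 ± 0.33 at 6 h (adjusted p = 0.00061, edgeR), but they overlapped with control 24 h. Against control 24 h the falls were -0.86 (adjusted p = 0.097, edgeR) at 3 h and -0.70 (adjusted p = 0.16, edgeR) at 6 h and were not called. At 24 h CDKN2C stood at -0.08 ± 0.36 against control 24 h (adjusted p = 0.88, edgeR) and at -1.22 against control 0 h (adjusted p = 0.0070, edgeR). The effect at 24 h minus that at 3 h was 1.91 ± 0.49 (adjusted p = 0.011, edgeR), and 1.49 without control 24 h replicate 1 (adjusted p = 0.062, edgeR). The control itself moved: control 24 h was -1.13 ± 0.36 against control 0 h (adjusted p = 0.28, edgeR).

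CDKN2D, which encodes the INK4 protein p19 (chromosome 19, 10566460 to 10569059, minus strand), was the 1 inhibitor called higher at 3 h. It held 4.68, 4.46 and 5.39 TPM in control 0 h, 3.95 and 3.6 TPM in control 24 h, and 7.19, 6.15 and 6.69 TPM at 3 h. The 3 h libraries were the highest of all 16. By 6 h the values were 3.96, 4.32 and 3.45 TPM, and at 12 h and 24 h they lay between 3.76 and 4.95 TPM. The rise at 3 h was 0.57 ± 0.13 (1.48-fold, 95% interval 1.24 to 1.76, adjusted p = 0.0044, edgeR), and the drop from 3 h to 6 h was -0.74 ± 0.13 (adjusted p = 0.0015, edgeR). The later times were not called, with -0.17 ± 0.13 at 6 h, -0.22 ± 0.15 at 12 h and 0.17 ± 0.15 at 24 h.

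CCND1, the main D cyclin of these cells (chromosome 11, 69641156 to 69654474, plus strand), was lower at 6, 12 and 24 h. It held 967, 974 and 946 TPM in control 0 h and 817 and 837 TPM in control 24 h. LatB 3 h gave 777, 784 and 833 TPM, which overlapped with control 24 h and lay under control 0 h. LatB 6 h gave 523, 547 and 573 TPM, LatB 12 h 474 and 600 TPM, and LatB 24 h 591, 627 and 665 TPM. All 8 libraries from 6 h on lay under all 5 controls and all 3 libraries of 3 h. The log2 fold change was -0.17 ± 0.07 at 3 h (adjusted p = 0.064, edgeR), -0.69 ± 0.07 at 6 h (adjusted p = 3.45e-06, edgeR), -0.82 ± 0.08 at 12 h (adjusted p = 4.34e-06, edgeR) and -0.35 ± 0.07 at 24 h (adjusted p = 0.0018, edgeR). Against control 0 h the 24 h value was -0.59 (adjusted p = 1.7e-05, edgeR), and control 24 h was -0.23 ± 0.07 against control 0 h (adjusted p = 0.28, edgeR). With control 24 h as the reference the 6 h and 12 h values were -0.46 (adjusted p = 0.00026, edgeR) and -0.59 (adjusted p = 0.00014, edgeR), and that of 3 h was 0.06 (adjusted p = 0.56, edgeR). The step from 3 h to 6 h was -0.52 ± 0.07 (adjusted p = 0.00014, edgeR), and the step from 6 h to 24 h, 0.11 ± 0.07, was not called (adjusted p = 0.23, edgeR). The 3 h value was called in 9 of 20 alternatives. Among them were DESeq2 (-0.18, adjusted p = 0.027, DESeq2) and the fit without LatB 3 h replicate 3 (-0.23, adjusted p = 0.042, edgeR).

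CCND2 (chromosome 12, 4269771 to 4305353, plus strand), the D cyclin known for its part in beta cell growth, moved less. Its values were 80.3, 84.7 and 78.3 TPM in control 0 h, 83.8 and 87.4 TPM in control 24 h, and 74.7, 67.1 and 72.1 TPM at 3 h. At 6 h it held 65.7, 67.5 and 69.3 TPM, at 12 h 63.8 and 73.5 TPM, and at 24 h 77.4, 87.9 and 76.2 TPM, the last overlapping with both controls. It was called lower at 6 h (-0.23 ± 0.06, adjusted p = 0.0051, edgeR) and 12 h (-0.37 ± 0.06, adjusted p = 0.00062, edgeR), with -0.15 ± 0.06 at 3 h (adjusted p = 0.067, edgeR) and -0.16 ± 0.06 at 24 h (adjusted p = 0.051, edgeR). It was called in 5 of 20 alternatives at 3 h and in 5 of 20 at 24 h. At 3 h these included DESeq2 (-0.16, adjusted p = 0.030, DESeq2) and the fit without LatB 3 h replicate 1 (-0.19, adjusted p = 0.043, edgeR). At 24 h they included DESeq2 (-0.17, adjusted p = 0.025, DESeq2) and the fit without LatB 24 h replicate 2 (-0.23, adjusted p = 0.0055, edgeR). From 6 h to 24 h it changed by 0.12 ± 0.06 (adjusted p = 0.13, edgeR), and by 0.17 without LatB 24 h replicate 3 (adjusted p = 0.042, edgeR).

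CCND3 (chromosome 6, 41934934 to 42050357, minus strand) is the least abundant D cyclin here. It held 8.08, 8.86 and 10.2 TPM in control 0 h, 7.28 and 7.60 TPM in control 24 h, 5.98 to 7.17 TPM at 3 h and 5.85 to 6.46 TPM at 6 h. All 6 early treated libraries lay under all 5 controls. It was 9.09 and 13.3 TPM at 12 h, the second value again LatB 12 h replicate 2, and 8.77, 7.37 and 8.62 TPM at 24 h. It was called lower at 6 h only (-0.46 ± 0.13, adjusted p = 0.010, edgeR), with -0.29 ± 0.13 at 3 h (adjusted p = 0.098, edgeR), and against control 24 h the 6 h value was -0.21 (adjusted p = 0.25, edgeR). The 12 h value of 0.26 ± 0.14 was not called (adjusted p = 0.16, edgeR) and was -0.03 without LatB 12 h replicate 2 (adjusted p = 0.89, edgeR). It was 0.50 without LatB 12 h replicate 1 (adjusted p = 0.0080, edgeR), when replicate 2 stands alone. The step from 6 h to 24 h was 0.39 ± 0.13 (adjusted p = 0.027, edgeR), a call lost without LatB 6 h replicate 2, LatB 6 h replicate 3 or LatB 24 h replicate 1 (0.34 to 0.37, adjusted p = 0.081 to 0.085).

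**Figure D3:**
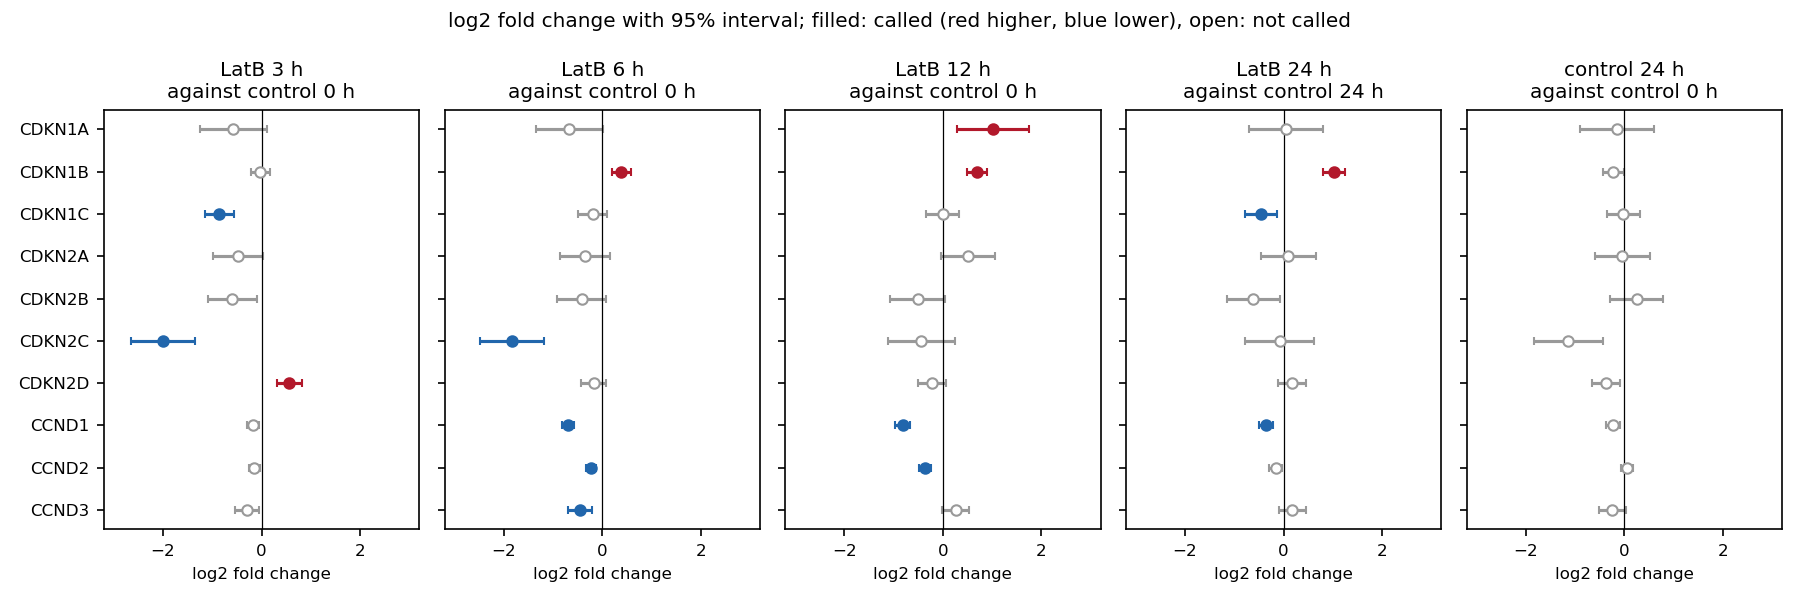
Log2 fold change (horizontal axis) of each gene in 5 comparisons, with its 95% interval; filled points were called by edgeR at an adjusted p under 0.05 (red higher, blue lower), and open points were not. CDKN1B moves right from 6 h to 24 h while CCND1 lies left of 0, and no gene was called between the controls.

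The controls alone gave 0 calls among the 10 genes with edgeR, beside 0.251% (42) of all genes, while 3 of the 10 had an unadjusted p under 0.05, as did 1414 of all genes; with DESeq2 the count was also 0 of 10. The step from 3 h to 6 h called 4 of the 10 (CDKN1B and CDKN1C higher, CDKN2D and CCND1 lower), beside 22.2% of all genes. The step from 6 h to 24 h called 2 (CDKN1B and CCND3 higher), beside 37.9% of all genes. Setting the 24 h effect against the 3 h effect called 2 (CDKN1B and CDKN2C), beside 27.9%. CCND1 was not among them, with a difference of -0.18 ± 0.10 (adjusted p = 0.19, edgeR).

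Summed over each family on the TPM scale, the D cyclins went from 1052 ± 16.8 (SD, n = 3) in control 0 h and 920 ± 17.2 (n = 2) in control 24 h to 876 ± 30.9 at 3 h, 621 ± 26.3 at 6 h, 617 ± 98.5 at 12 h (n = 2) and 717 ± 36.6 at 24 h. Every library from 6 h on lay below every control. The CIP/KIP sum, of which CDKN1C held 47.9% to 80.9%, was 302 ± 10.7 in control 0 h, 305 ± 10.9 in control 24 h, 167 ± 20.9 at 3 h, 237 ± 25.2 at 6 h, 370 ± 25.9 at 12 h and 246 ± 11.6 at 24 h. CDKN1B is the least abundant of the 3 CIP/KIP genes in every library. The INK4 sum was 32.2 in control 0 h, 32.3 in control 24 h, 24.5 at 3 h, 22.6 at 6 h, 34.2 at 12 h and 29.2 at 24 h. The 12 h mean joins 25.6 and 42.9 TPM, the second from LatB 12 h replicate 2, and the first lies under every control. These sums are given as a description, with no test.

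**Figure D4:**
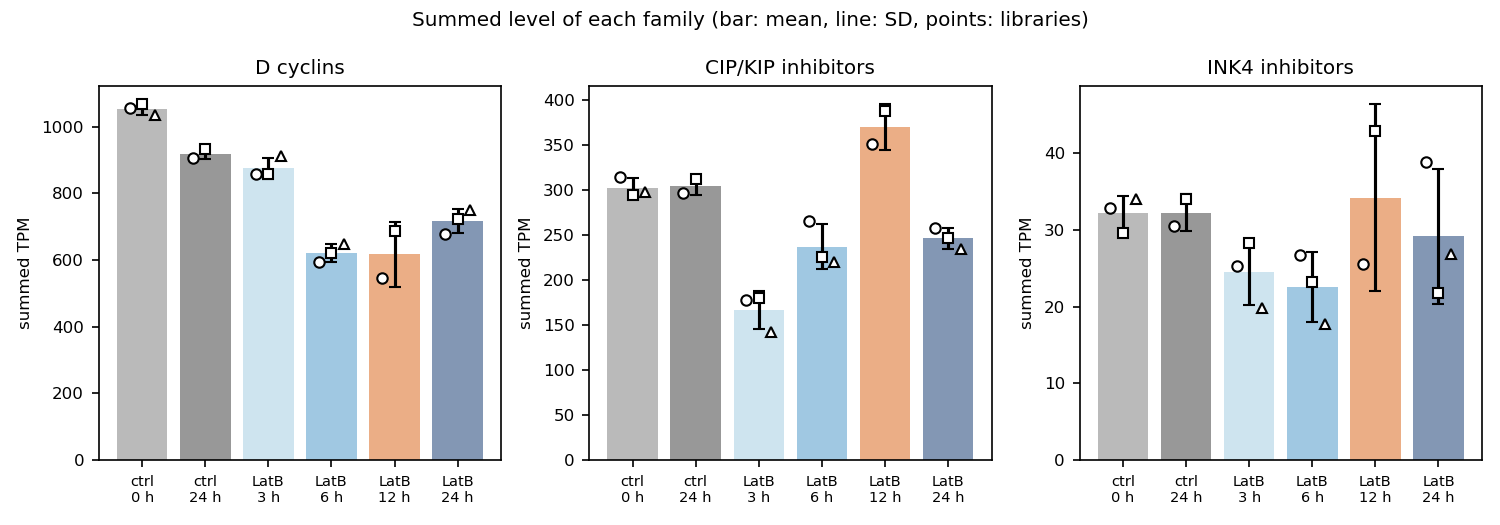
Summed TPM (vertical axis, from 0) of the D cyclins, the CIP/KIP inhibitors and the INK4 inhibitors by group; bars are means, lines are SDs and points are libraries. The D cyclin sum drops from 1052 TPM in control 0 h to 621 TPM at 6 h, and the CIP/KIP sum is lowest at 3 h, at 167 TPM.

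Of 24 G1/S genes tested, 11 were higher and 1 lower at 24 h (median log2 fold change 0.27, beside 0.01 over all genes), 4 and 2 at 3 h, 9 and 3 at 6 h, and 5 and 5 at 12 h (2 and 6 without LatB 12 h replicate 2). Over all genes 16.8%, 22.9%, 19.1% and 21.9% were higher at 3, 6, 12 and 24 h, and 14.7%, 20.4%, 16.8% and 18.8% lower. Against control 0 h the 24 h count was 6 and 3 (median 0.13). CDK4, the kinase that D cyclins activate, rose to 0.48 ± 0.06 at 6 h (adjusted p = 2.6e-05, edgeR) and 0.60 ± 0.07 at 24 h (adjusted p = 1.95e-05, edgeR), from 138 and 153 TPM in control 24 h to 227, 230 and 234 TPM. CDK6 was lower at 3 h (-0.66 ± 0.23, adjusted p = 0.043, edgeR), a call lost without any 1 of the 6 libraries compared (adjusted p = 0.062 to 0.13) and against control 24 h, and was not called at 24 h (-0.26 ± 0.25, adjusted p = 0.44, edgeR). RBL2, a pocket protein that represses E2F targets in resting cells, was lower at all 4 times, with -0.64 ± 0.05 at 6 h and -0.44 ± 0.05 at 24 h (adjusted p = 4.68e-05, edgeR). Its relative RBL1 was higher at 24 h (0.79 ± 0.11, adjusted p = 0.00011, edgeR), as were E2F3 (0.40 ± 0.07, adjusted p = 0.00039, edgeR), E2F1 (0.91 ± 0.16, adjusted p = 0.00058, edgeR) and CCNE1 (0.76 ± 0.13, adjusted p = 0.00049, edgeR), an E cyclin that activates CDK2. Against control 0 h RBL1 (0.48, adjusted p = 0.0014, edgeR) and E2F3 (0.33, adjusted p = 0.00054, edgeR) were still called, whereas E2F1 (0.20, adjusted p = 0.27, edgeR) and CCNE1 (0.17, adjusted p = 0.24, edgeR) were not. E2F1 held 7.33 to 7.81 TPM in LatB 24 h, 4.09 and 4.18 TPM in control 24 h and 6.29 to 7.64 TPM in control 0 h. CDK2 itself (0.10 ± 0.08), CCNE2 (0.47 ± 0.30) and RB1 (0.07 ± 0.08) were not called at 24 h.

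A list of 14 genes of ubiquitin control held, among others, genes that act on the stability of p27 and the D cyclins. Over all genes 16.8%, 22.9%, 19.1% and 21.9% were higher at 3, 6, 12 and 24 h, and 14.7%, 20.4%, 16.8% and 18.8% lower. Of the 14 genes on the list, 6 were higher and 2 lower at 3 h, 8 and 2 at 6 h, 3 and 0 at 12 h, and 5 and 0 at 24 h. The 24 h count was 3 without either control 24 h library or without LatB 24 h replicate 3. SKP2, the F-box protein that marks p27 for destruction, was lower at 3 h (-0.44 ± 0.09, adjusted p = 0.0015, edgeR) and 6 h (-0.23 ± 0.09, adjusted p = 0.043, edgeR; lost without control 0 h replicate 1 or 3 or LatB 6 h replicate 1 or 2, adjusted p = 0.099 to 0.16) and not called at 24 h (0.17 ± 0.09, adjusted p = 0.18, edgeR). AMBRA1, the adaptor that marks D cyclins, was higher at 24 h (0.44 ± 0.06, adjusted p = 5.79e-05, edgeR), as were DTL, an S phase adaptor (1.38 ± 0.26, adjusted p = 0.0011, edgeR), and DDB1, which links adaptors to the ligase (0.19 ± 0.04, adjusted p = 0.0022, edgeR). Against control 0 h DTL was 0.49 and not called (adjusted p = 0.093, edgeR). These are RNA levels, and protein stability was not measured in these libraries.

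The p53 target genes, of which CDKN1A is a classical member kept off the list, gave most calls at 12 h. Of 24 genes, 0 were higher and 5 lower at 3 h, 1 and 7 at 6 h, 12 and 1 at 12 h (median 0.42), and 4 and 1 at 24 h (median 0.13). The shares of all genes at these times were 16.8%, 22.9%, 19.1% and 21.9% higher, and 14.7%, 20.4%, 16.8% and 18.8% lower. The 5 lower at 3 h became 2 or 3 when any 1 of the 6 libraries compared was left out, and the 7 lower at 6 h became 4 without control 0 h replicate 1 or LatB 6 h replicate 3. Without LatB 12 h replicate 2 the 12 h count was 3 higher and 4 lower with a median of 0.04, and 20 and 0 with a median of 0.78 without LatB 12 h replicate 1. The 24 h count was 2 and 2 with a median of -0.02 without LatB 24 h replicate 1, and 2 and 0 without control 24 h replicate 1. MDM2, the p53 antagonist, held 68.7 and 151 TPM at 12 h and 44.7 to 61.4 TPM in control 0 h (1.03 ± 0.22, adjusted p = 0.0029, edgeR). Without LatB 12 h replicate 2 it was 0.43 and not called (adjusted p = 0.076, edgeR), nor was it at 24 h (0.38 ± 0.23, adjusted p = 0.20, edgeR). BTG2, an antiproliferative gene (0.71 ± 0.09, adjusted p = 4.36e-05, edgeR), TP53I3 (0.87 ± 0.11, adjusted p = 5.39e-05, edgeR) and TIGAR (0.55 ± 0.17, adjusted p = 0.017, edgeR) were higher at 24 h, and cyclin G1, CCNG1, was lower (-0.26 ± 0.08, adjusted p = 0.020, edgeR). The TIGAR call was lost without control 24 h replicate 1 (0.41) or LatB 24 h replicate 1 (0.43), and that of CCNG1 without either control 24 h library or LatB 24 h replicate 2 or 3 (-0.30 to -0.20). At 12 h 3 of 8 mesenchyme genes were higher, and 0 were higher and 1 lower without LatB 12 h replicate 2. The part of mesenchymal, liver, endothelial or blood cells in the CDKN1A, CDKN2A and CCND3 values of that library was not tested.

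The direction of the proliferation markers depended on the control. Of 22 markers, 13 were higher and 0 lower at 24 h against control 24 h (median 0.50), but 7 were higher and 10 lower against control 0 h (median -0.30). With control 24 h as the reference 14 were higher and 1 lower at 3 h and at 6 h (median 0.55 each), and 19 and 0 at 12 h (median 0.76). Without control 24 h replicate 1 the first count was 8 and 0 (median 0.35). Between the controls 3 were lower at 24 h and 0 higher, with a median of -0.60. The DNA replication licensing genes MCM2 (1.55 ± 0.09, adjusted p = 2.59e-07, edgeR), MCM4 (0.88 ± 0.09, adjusted p = 1.1e-05, edgeR) and MCM7 (0.77 ± 0.08, adjusted p = 1.35e-05, edgeR) were higher at 24 h against control 24 h. Against control 0 h they were higher too, at 1.15, 0.42 and 0.47. MKI67, a marker of cycling cells, was not called against control 24 h (0.37 ± 0.20, adjusted p = 0.16, edgeR) and was lower against control 0 h (-0.61, adjusted p = 0.013, edgeR), with 3.96 and 5.36 TPM in control 24 h, 6.54, 7.48 and 4.39 TPM in LatB 24 h, and 7.44 to 9.43 TPM in control 0 h. At 3 h 3 markers were higher and 7 lower, at 6 h 3 and 5, and at 12 h 3 and 2. The shares of all genes at these times were 16.8%, 22.9% and 19.1% higher, and 14.7%, 20.4% and 16.8% lower. At 24 h against control 24 h they were 21.9% higher and 18.8% lower. The 7 lower at 3 h became 2 without control 0 h replicate 1 and 3 without control 0 h replicate 3, LatB 3 h replicate 1 or LatB 3 h replicate 2. The 5 lower at 6 h became 3 without control 0 h replicate 1 or 3 or LatB 6 h replicate 1 or 2, and the 2 lower at 12 h became 5 without LatB 12 h replicate 2. A list of 7 genes was set for the DREAM complex, which represses cell cycle genes in resting cells. It also held the kinase genes DYRK1A and DYRK1B, which are not subunits, and the activity of the complex was not measured. Of these 7 genes, 3 were higher and 0 lower at 24 h. They were LIN52 (0.41 ± 0.11, adjusted p = 0.0070, edgeR), RBBP4 (0.13 ± 0.04, adjusted p = 0.014, edgeR) and LIN9 (0.29 ± 0.11, adjusted p = 0.043, edgeR). That count was 0 without control 24 h replicate 1, 1 without control 24 h replicate 2 and 2 without LatB 24 h replicate 2 or 3, and LIN9 was not called against control 0 h (0.08, adjusted p = 0.54, edgeR).

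**Figure D5:**
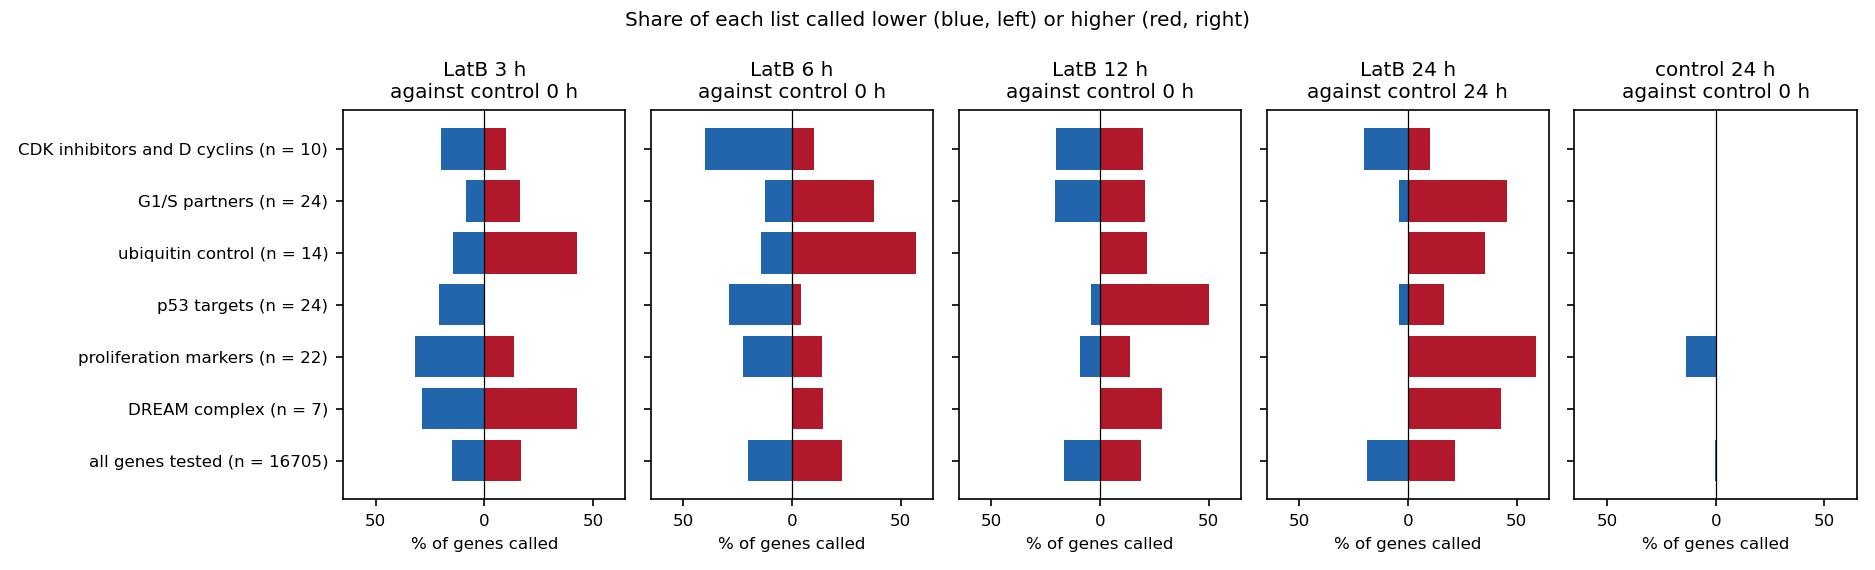
Percent of the genes of each list called lower (blue, left) or higher (red, right) by edgeR in 5 comparisons, with the number tested in brackets. Of the 10 CDK inhibitors and D cyclins 4 were lower and 1 higher at 6 h, and 13 of 22 proliferation markers were higher at 24 h against control 24 h.

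Of 5 tested genes next to the inhibitor loci, 1 was called at 3 h, 0 at 6 h, 1 at 12 h and 0 at 24 h. The shares of all genes were 31.6%, 43.3%, 35.8% and 40.8%. MTAP, beside CDKN2A, was lower at 3 h (-0.20 ± 0.05, adjusted p = 0.0054, edgeR) and not called at 24 h (-0.14 ± 0.05, adjusted p = 0.056, edgeR). Beside CDKN1C, KCNQ1 was lower at 12 h (-0.66 ± 0.22, adjusted p = 0.032, edgeR), a call lost without LatB 12 h replicate 2 (-0.35, adjusted p = 0.29, edgeR) or any 1 control 0 h library (-0.69 to -0.63), while NAP1L4 (-0.13 ± 0.16 at 3 h) and SLC22A18 (0.19 ± 0.48 at 3 h) were not called at any time against the controls. Without LatB 12 h replicate 2, which leaves 1 library at 12 h, SLC22A18 was -2.21 at that time. NAP1L4 was called higher at 24 h without LatB 24 h replicate 2 (0.52, adjusted p = 0.036, edgeR). PHLDA2 lay between 0 and 2.05 TPM and is given no fold change. None of these 4 neighbours of CDKN1C was called at 3 h, where CDKN1C fell. PHLDA2, near the floor, and SLC22A18, with its SE of 0.48, could be called only for a large change.

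Among 10520 genes with a mean log2 CPM of at least 3, those whose log2 CPM followed CCND1 most closely over the 16 libraries were PIK3AP1 (Pearson r = 0.977), SCNN1G (0.965) and KANK4 (0.962). PIK3AP1 went from 24.8 to 29.3 TPM in control 0 h to 10.6 to 12.1 TPM at 6 h. The closest to CDKN1B were PRRT3 (0.975), CHST6 (0.970) and TXNDC17 (0.967), the last rising from 165 and 175 TPM in control 24 h to 262 to 268 TPM at 24 h. These correlations are descriptions over the same libraries and carry no test.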

How the data were processed

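Poly(A) RNA from 16 libraries was sequenced. The authors deposited 1 transcript table per library in the format of Salmon, with estimated counts and TPM values for 177456 transcripts and an effective length. The submitters' processing notes name Salmon 1.3.0 and the build hg38, whereas the methods describe STAR alignment and gene counts, so upstream settings are uncertain. The authors' deposited table of DESeq2 fold changes, which also has 16 columns of per-sample values, was not used.

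Transcripts were joined to GENCODE release 44 by identifier without version. Of 177456 transcripts, 165533 matched, and 2.92% to 3.17% of reads per library stayed unmatched. Estimated counts were summed over 35810 genes and rounded. Counts were tested with edgeR 4.0.16 (R 4.3.3), quasi-likelihood, two-sided, with 6 groups in 1 fit, TMM scaling (factors 0.947 to 1.05) and filterByExpr, which left 16705 genes. P-values were adjusted by Benjamini-Hochberg over all of them and called under 0.05. SE is the log2 fold change over the square root of F, and 95% intervals are normal intervals from it. They are narrower than the test implies. For CDKN1B between the controls the interval was -0.440 to -0.005, with an unadjusted p of 0.066 (edgeR). Levels are compared between genes only as TPM.

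The 10 genes, the lists and the motifs were chosen with earlier results of these data known. Named beside the 10 genes were 10 set partners, the 3 called genes with the lowest p in each direction per list at 24 h, all tested neighbours, and the 3 genes most like the inhibitor and the D cyclin with the largest F. Promoter windows came from RefSeq (GRCh38.p14). The alternatives were DESeq2 1.42.0, RLE or no scaling, a length offset, keeping every gene or those averaging 50 counts, the replicate number as a block, limma-trend (3.58.1) on log2(TPM + 1) and log2(TPM + 0.1), the other control, only the compared groups, stricter thresholds and leaving out each library. Leaving out both 12 h libraries, or LatB 12 h replicate 2 and LatB 24 h replicate 1 together, was added after seeing the data, as was the use of all alternatives on the lists and on the genes named beside the 10. The scripts were tested on simulated counts. CDKN2B-AS1 and KCNQ1OT1 were not analysed here. A library's total sets the precision: CDKN2C rests on 8 to 46 reads, and intervals cover the spread between libraries only.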

Additional observations from a re-analysis of the deposited data

Results flagged for a closer look

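In 2 of the 10 genes the late response to latrunculin B (24 h, set against its DMSO control) was unlike the early one (3 h, set against the 0 h control) when the difference itself was tested. Of all 16705 genes 27.9% were called in the same test, so the share of these 10 genes, 20%, was not above that of the transcriptome. CDKN1B differed by 1.06 on the log2 scale (adjusted p = 0.00024, edgeR): it was -0.03 at 3 h and 1.03 at 24 h, and each of the 3 LatB 24 h libraries lay above all 5 controls. CDKN2C differed by 1.91 (adjusted p = 0.011, edgeR): it was -1.99 at 3 h and -0.08 at 24 h, and without control 24 h replicate 1 the difference was 1.49 and no longer called (adjusted p = 0.062, edgeR). The 2 effects have different controls, and for CDKN2C those controls differed by -1.13 (adjusted p = 0.28, edgeR) on 13 to 46 reads per library. The part of the change of control in the CDKN2C difference was not tested.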

How the results depend on the processing

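Of 161 counts of the 10 genes called under the alternatives, 137 stayed within 1.5 times of the value reported. With a log2 fold change of at least 1 required, 1 was called at 3, 6, 12 and 24 h, and 0 in the steps from 3 h to 6 h and from 6 h to 24 h. Of all 16705 genes that requirement left 614 at 3 h, 1033 at 6 h, 1266 at 12 h and 1213 at 24 h. In those steps it left 298 and 865. At an adjusted p under 0.01, 1 was called from 6 h to 24 h and 1 in the difference of effects, as in the latter with a mean of at least 50 counts, a filter that removed CDKN2C. Over all genes that threshold called 4116 and 2609 of 16705, and that filter gave 4735 of 13125. At 3 h 5 were called with DESeq2, with no scaling and with both LatB 12 h libraries left out. Limma-trend on log2(TPM + 1) or log2(TPM + 0.1) also called 5, and only the compared groups gave 7. Over all genes these called, in that order, 5251 of 16678, 5342 of 16705, 6173 of 16622, 3625 and 3627 of 16705, and 5739 of 15709. At 6 h 8 were called with only the compared groups, beside 8055 of 15542 genes, and 3 with control 24 h as the reference, beside 6904 of 16705. Without scaling 4 were called from 6 h to 24 h, beside 7076 of 16705 genes. With LatB 12 h replicate 2 and LatB 24 h replicate 1 left out together 4 were called in the difference of effects, beside 5774 of 17092. The main fit called 5271 at 3 h, 7230 at 6 h, 6323 from 6 h to 24 h and 4665 in the difference, each of 16705. With any 1 library of the compared groups left out, 4145 to 4720 genes were called at 3 h and 5934 to 6618 at 6 h. From 6 h to 24 h such leave-outs called 5059 to 5742. Leaving out each library gave 3 to 4 at 3 h, 5 to 5 at 6 h, 3 to 7 at 12 h, 2 to 3 at 24 h, 1 to 3 from 6 h to 24 h and 1 to 2 for the difference. CDKN1A at 12 h ranged from -0.0205 to 1.61 over the leave-outs: it changed sign, to -0.0205 without LatB 12 h replicate 2, stood at 1.61 without LatB 12 h replicate 1, and was -0.0202 with LatB 12 h replicate 2 and LatB 24 h replicate 1 left out together. CDK6 at 12 h was called lower without LatB 12 h replicate 2 (-0.618) and with those 2 libraries left out together (-0.618), and ranged from -0.618 to 0.548 over the leave-outs. With the other control as the reference the sign turned for MCM2 at 3 h (0.38), MKI67 at 3 h (0.75), 6 h (0.74) and 24 h (-0.61), CCNE1 at 6 h (0.47) and 12 h (0.14), and MCM4 at 12 h (0.45). The causes were not tested.

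With the replicate block, 5 of the 10 were called at 6 h, 3 at 12 h and 2 at 24 h. Of all 16705 genes that setting called 6863, 5364 and 6005 at these times. CDKN1A at 12 h (0.88, adjusted p = 0.11, edgeR) and CDKN1C at 24 h (-0.43, adjusted p = 0.080, edgeR) lost their calls. CCND1 at 3 h gained one (-0.17, adjusted p = 0.040, edgeR). Same-numbered libraries of different groups deviated with a correlation of -0.24 to 0.12 (median -0.02), beside -0.14 to 0.24 (median 0.01) for other numbers. Deviations from means of 2 or 3 libraries are a weak check. Whether same numbers share a batch of differentiation was thus not settled. No scaling shifted the median of all genes by 0.13 from 6 h to 24 h and by 0.10 for the difference. It moved the share of higher calls from 53.3% to 36.1% at 3 h, from 52.8% to 37.7% at 6 h, from 50.1% to 73.8% from 6 h to 24 h and from 52.1% to 69.0% for the difference. Between the controls 2 to 248 genes were called, the most with DESeq2. Among 1602 values of the 10 genes, 1498 kept their call or its absence, as did 2106 of 2370 values of the genes named beside them.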
